A study of Rattus norvegicus with 12 samples.

Results

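Chemokines are small secreted proteins that draw leukocytes along a gradient. Here 10 of their genes, grouped as neutrophil and monocyte chemokines though some also act on other cells, were followed in cultured rat astrocytes. They were taken from a fixed list (Cxcl1, Cxcl2, Cxcl3, Ccl2, Ccl3, Ccl4, Ccl5, Ccl7, Ccl20 and Cx3cl1). For each, the array row that the platform annotation pairs with that one gene was used, and all 10 had exactly such a row among 18166 genes measured. Every value below is a log2 expression level or a difference between such levels, so a difference of 1 is a doubling.

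The cells were primary astrocytes from the cerebral cortex of Sprague-Dawley rats 1 day old, kept for 2 days in serum-free medium against microglia and meningeal cells. Each of 4 conditions had 3 arrays. In siCon, cells carried a control siRNA and nothing was added; siCon_IFNg received interferon-γ on top of it; and siCon_IFNg_GW received interferon-γ together with GW, a compound the labels name in no other way. In siSHP_IFNg_GW both agents were given to cells that carried an siRNA against SHP instead. Treatments lasted 3 h, and no group had SHP siRNA without GW, or GW without interferon-γ. No dose is given in the labels. Whether the arrays numbered 1, 2 and 3 came from separate cultures is not stated; the spread behind every p-value is that between arrays and could be technical.

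In the brain, astrocytes and microglia both release chemokines when cytokines or injury reach them. CXC chemokines such as Cxcl1 and Cxcl2 act on the receptor Cxcr2 of neutrophils. Ccl2 and Ccl7 act on Ccr2 of inflammatory monocytes, Ccl20 on Ccr6, and membrane-bound Cx3cl1 on Cx3cr1 of microglia, while Ccl3, Ccl4 and Ccl5 draw monocytes and T cells. Many of these genes are induced within hours through NF-κB.

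Promoter stretches are shown first, for the 5 members for which one was available. RefSeq promoters of assembly GRCr8 were matched by symbol for these 5 of the 10. None was at hand for Cxcl3, Ccl2, Ccl3, Ccl4 and Ccl5, and a link between motifs and responses was not tested. Each line gives the 250 bases before the annotated start, 5′ to 3′ on the gene's strand, and capitals mark the motif letters found.
Cxcl1: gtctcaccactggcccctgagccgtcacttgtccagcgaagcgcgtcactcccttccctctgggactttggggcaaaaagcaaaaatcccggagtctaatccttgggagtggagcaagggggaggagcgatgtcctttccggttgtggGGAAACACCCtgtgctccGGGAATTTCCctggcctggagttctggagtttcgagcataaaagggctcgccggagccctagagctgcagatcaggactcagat
Cxcl2: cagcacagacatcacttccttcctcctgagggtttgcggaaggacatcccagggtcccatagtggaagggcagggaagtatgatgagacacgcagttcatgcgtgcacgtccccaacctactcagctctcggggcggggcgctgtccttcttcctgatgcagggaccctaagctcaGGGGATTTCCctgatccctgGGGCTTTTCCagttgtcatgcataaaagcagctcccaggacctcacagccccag
Ccl20: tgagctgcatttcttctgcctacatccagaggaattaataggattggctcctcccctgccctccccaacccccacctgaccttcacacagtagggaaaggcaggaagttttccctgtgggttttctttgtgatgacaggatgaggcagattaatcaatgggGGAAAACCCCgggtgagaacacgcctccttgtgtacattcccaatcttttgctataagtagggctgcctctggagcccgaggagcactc
Ccl7: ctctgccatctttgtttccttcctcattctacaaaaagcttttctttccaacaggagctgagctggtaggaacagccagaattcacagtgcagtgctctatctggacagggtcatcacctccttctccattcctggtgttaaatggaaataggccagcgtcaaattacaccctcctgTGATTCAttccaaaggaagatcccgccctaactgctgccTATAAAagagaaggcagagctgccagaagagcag
Cx3cl1: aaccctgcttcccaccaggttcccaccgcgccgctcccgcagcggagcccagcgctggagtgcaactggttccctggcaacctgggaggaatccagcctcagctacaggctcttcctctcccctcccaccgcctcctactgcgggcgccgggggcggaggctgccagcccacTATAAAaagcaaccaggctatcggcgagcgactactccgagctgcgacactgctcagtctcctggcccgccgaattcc

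These stretches lie at chr14:17479322-17479571 on the minus strand for Cxcl1, chr14:17467256-17467505 on the minus strand for Cxcl2, chr9:91836909-91837158 on the plus strand for Ccl20, chr10:67513845-67514094 on the plus strand for Ccl7 and chr19:10242821-10243070 on the minus strand for Cx3cl1. One form of the NF-κB site (GGG, any 2 bases, then TTTCC) was searched on both strands, and this motif like the others was chosen after the sequences had been seen. It occurred at 102 and 84 bases before the start of Cxcl1, at 74 and 54 bases before that of Cxcl2 and at 89 bases before that of Ccl20, and in neither the Ccl7 nor the Cx3cl1 window. Of 33469 promoters, 1.3% held it in such a window. The AP-1 letters TGANTCA stood 73 bases before the start of Ccl7 (6.34% of promoters), and TATAAA stood 34 bases before Ccl7 and 78 bases before Cx3cl1 (12.9%). The letters TGACGTCA, the cyclic AMP response element (1.59% of promoters), were in none of the 5 windows. A match is a description of letters and not a binding site measured here. In the RefSeq order Cxcl1 and Cxcl2 were neighbours, as were Ccl2 and Ccl7, and Ccl3 and Ccl4.

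A level was called background when it was under 5.34, the 95th percentile of the means of 1344 genes for olfactory and vomeronasal receptors. Cxcl3, a neutrophil chemokine, lay below that level on all 12 arrays (3.27 to 4.09), so its differences, which are included in the counts and medians over the 10 members, are not read as changes. Ccl4 lay below it on 2 arrays, and the other 8 members were above it throughout. The siRNA target Nr0b2, which encodes the small heterodimer partner that SHP was read as, was at 4.59 to 5.12 on the 12 arrays and so gave no check of the knockdown.

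The astrocyte label fitted its markers: the 11 measured of 14 had medians of 10.41 to 11.01 on the 12 arrays. The 14 measured microglia markers of 16 had medians of 8.32 to 9.46, with none below background on any array. Their summed levels (log2 of the sum) were 12.68 to 13.32 in siCon, 12.74 to 12.97 in siCon_IFNg, 12.23 to 12.46 in siCon_IFNg_GW and 12.31 to 12.56 in siSHP_IFNg_GW. Chemokine RNA thus cannot be assigned to astrocytes alone, and in such bulk samples fewer cells of a type and less RNA per cell cannot be told apart. Of 11 neutrophil markers 8 to 10 lay below background on each array, as did 4 to 6 of 7 T cell markers. Of the 8 monocyte markers 3 lay below it on each array and the rest above. The monocyte marker medians were 6.99 to 7.21 on the arrays numbered 1 and 7.64 to 7.90 on the others, with summed levels of 12.71 to 13.19. The 11 measured of 12 oligodendrocyte markers had medians of 6.81 to 7.31, with 0 to 2 below background on each array. The 12 neuron markers had medians of 5.50 to 5.92, with 3 to 6 below it.

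The arrays numbered 1 stood apart from numbers 2 and 3 for most of these genes, and this shaped each comparison. Under siCon, number 1 was higher than the mean of numbers 2 and 3 for 7 of the 10 members by limma (23.1% of all genes differed). The largest difference was that of Ccl5, a chemokine for T cells and monocytes, with 4.18 ± 0.11 (SE, limma adjusted p = 5.98e-06). Ccl3 differed by 3.33, Ccl4 by 3.04, Ccl7 by 1.97, Cxcl2 by 1.26, Cxcl1 by 0.87 and Ccl2 by 0.85. Ccl20 (0.24, adjusted p = 0.18; 0.036 after median centring) and Cx3cl1 (0.19, adjusted p = 0.37) did not pass. Here 1 array stands against 2, so the spread comes from numbers 2 and 3 and number 1 is assumed to vary as they do. The split by number was chosen with earlier results of these data known. Its p-values, here and below, describe the split and are no independent support for it. Cell type markers moved with the number too: the 10 measured of 12 meningeal and vascular markers had medians of 7.61 to 8.15 on the arrays numbered 1 and 8.69 to 9.08 on the others, with 1 to 3 below background on each array, and under siCon the summed microglia level was 13.32 in number 1 against 12.81 and 12.68. Their part in the chemokine values was not tested. Each comparison is therefore given over all 12 arrays, within each number, and on the 8 arrays numbered 2 and 3, where each group has 2 arrays; a fit that blocks on the number is quoted where a call depends on it.

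**Figure D1:**
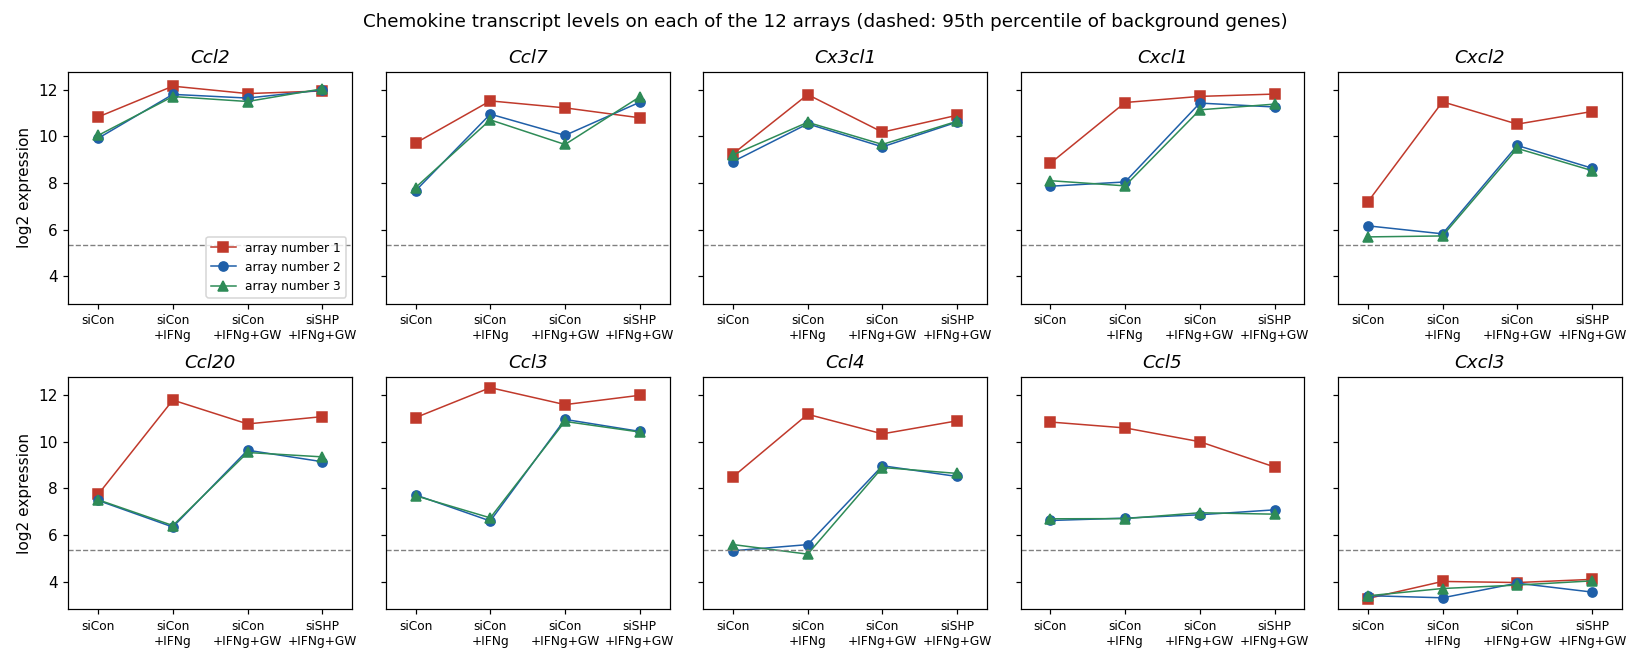
Log2 expression of each of the 10 chemokines (vertical axis) in the 4 groups (horizontal axis); each point is 1 array, lines join arrays of the same number, and the dashed line is the 95th percentile of background genes, 5.34. Ccl2, Ccl7 and Cx3cl1 followed the same course from siCon to siCon_IFNg in all 3 numbers, and Ccl5 was high in number 1 in every group. In siCon_IFNg, Cxcl1, Cxcl2, Ccl20, Ccl3 and Ccl4 had a high number 1 and low numbers 2 and 3. Of these, Ccl3 and Ccl4 stood apart most by number already in siCon (by 3.33 and 3.04).

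Which of these chemokines responded to interferon-γ was read from siCon_IFNg against siCon. The monocyte chemokine Ccl2 rose 3.08-fold. Its levels were 10.83, 9.91 and 10.04 in siCon replicates 1, 2 and 3, and 12.15, 11.80 and 11.70 in siCon_IFNg. The groups did not overlap, and the difference was 1.62 ± 0.21 (SE, n = 3 per group, limma adjusted p = 0.025). It was 1.32, 1.88 and 1.67 in the pairs numbered 1, 2 and 3. Ccl2 was the 1 member that passed over all 12 arrays, where 0.121% of all genes did. The call was lost with median centring of the arrays (adjusted p = 0.053), in the fit on these 2 groups alone (adjusted p = 0.29), and on leaving out siCon replicate 2 or 3, siCon_IFNg replicate 2 or 3, siCon_IFNg_GW replicate 2 or siSHP_IFNg_GW replicate 2 (adjusted p = 0.052 to 0.16), with differences of 1.45 to 1.71.

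Ccl7, the other Ccr2 ligand of the list, had levels of 9.71, 7.66 and 7.81 in siCon and 11.52, 10.95 and 10.71 in siCon_IFNg. All 3 treated arrays were above all 3 untreated ones. The difference was 2.66 ± 0.54 (SE, limma adjusted p = 0.16), and it passed with the replicate block (adjusted p = 0.023) and on numbers 2 and 3 alone, where the rise was 8.53-fold (3.09 ± 0.15, adjusted p = 2.60e-05). Cx3cl1, the membrane-anchored ligand of the microglial receptor Cx3cr1, had levels of 9.25, 8.92 and 9.20 in siCon and 11.79, 10.53 and 10.60 in siCon_IFNg. Again the groups did not overlap, and number 1 was the highest of the treated arrays. The difference of 1.85 ± 0.30 (SE, adjusted p = 0.052) passed with the block (adjusted p = 0.0023) and on numbers 2 and 3 (1.51, adjusted p = 1.72e-04). With the block 3 members, these and Ccl2, were called (0.936% of all genes). The 3 of 10 members whose groups did not overlap were the same ones, all higher with interferon-γ, as were 3.59% of all genes.

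Of the other above-background members, all but Ccl5 moved differently in number 1 and in numbers 2 and 3. Ccl20, which attracts Ccr6-bearing lymphocytes and dendritic cells, was at 7.74, 7.48 and 7.51 in siCon and at 11.78, 6.34 and 6.40 in siCon_IFNg. It was thus higher by 4.04 in number 1, and its differences in numbers 2 and 3 were -1.14 and -1.11. Cxcl2, a ligand of Cxcr2, was at 7.19, 6.16 and 5.69 in siCon and at 11.48, 5.82 and 5.73 in siCon_IFNg, so that only the number 1 array was raised. Cxcl1, which likewise acts on Cxcr2, had 8.85, 7.86 and 8.10 in siCon and 11.45, 8.04 and 7.88 in siCon_IFNg. The same 1 array was high here.

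Ccl3, which draws monocytes, was at 11.02, 7.71 and 7.68 in siCon and at 12.31, 6.60 and 6.73 in siCon_IFNg. Number 1 was high without interferon-γ and higher with it, while numbers 2 and 3 were lower with it. Ccl4, its neighbour on the chromosome, was at 8.49, 5.32 and 5.59 in siCon and at 11.17, 5.58 and 5.18 in siCon_IFNg, with numbers 2 and 3 near background in both groups. Ccl5 was at 10.84, 6.62 and 6.69 in siCon and at 10.58, 6.72 and 6.70 in siCon_IFNg. Its 2 groups thus nearly coincided within each number.

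Over all 12 arrays none of these 6 passed (limma adjusted p = 1.00 for each). On numbers 2 and 3 alone Ccl20 fell by 1.12 (SE 0.09, limma adjusted p = 3.39e-04) and Ccl3 fell by 1.03 (SE 0.08, adjusted p = 2.98e-04). There Cxcl1 had -0.02, Cxcl2 -0.15, Ccl4 -0.07 and Ccl5 0.05, and in all 5 members passed, 3 higher (3.05% of all genes) and 2 lower (1.66%). The difference between the change in number 1 and that in the others was itself called by limma for 6 members (2.43% of all genes). It was 5.16 ± 0.16 for Ccl20 (SE, adjusted p = 2.37e-05), 4.44 for Cxcl2, 2.75 for Ccl4, 2.62 for Cxcl1, 2.32 for Ccl3 and 1.03 for Cx3cl1. Ccl7 had -1.28 (adjusted p = 0.053). Over the 10 members the median change was 0.85 with 8 positive (all genes, -0.03). It was 2.18, 0.14 and 0.02 in pairs 1, 2 and 3.

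**Figure D2:**
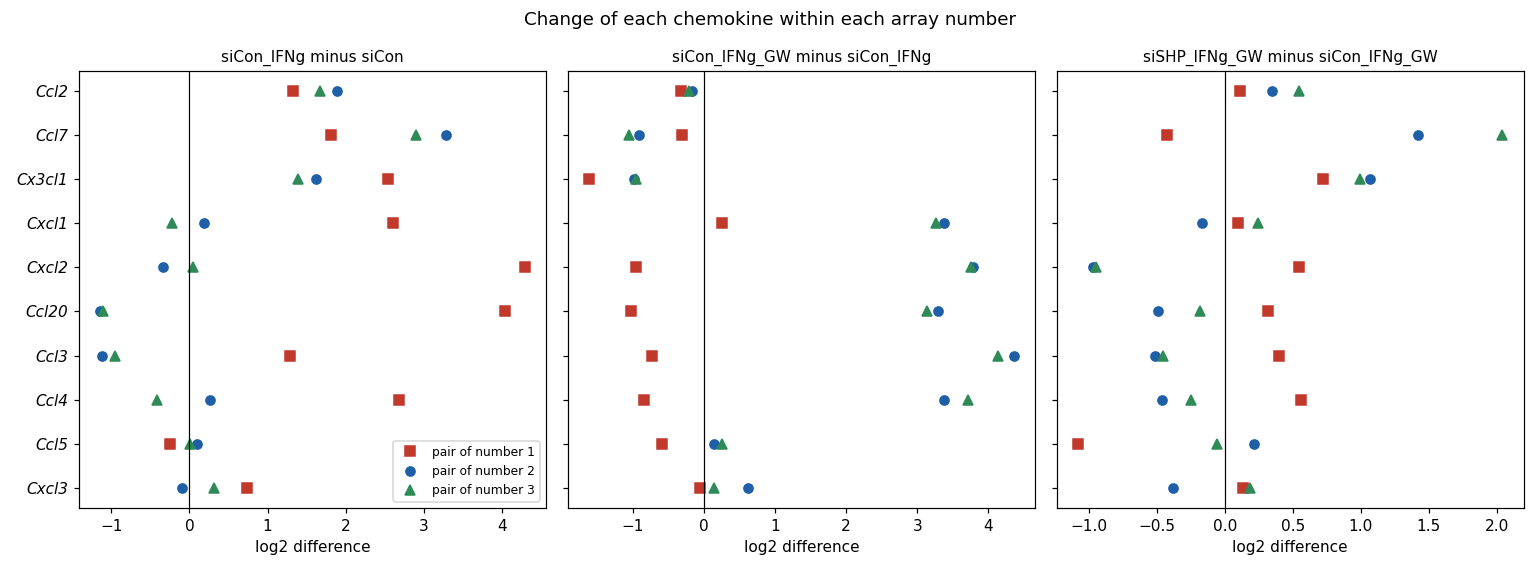
Log2 difference of each chemokine (horizontal axis) within the pair of arrays that share a number, for interferon-γ against siCon (left), GW added to interferon-γ (middle) and SHP siRNA against control siRNA under both (right). In the left panel number 1 lay at 1.28 to 4.29 for Cxcl1, Cxcl2, Ccl20, Ccl3 and Ccl4, where numbers 2 and 3 lay between -1.14 and 0.26. In the middle panel numbers 2 and 3 lay at 3.13 to 4.35 for these 5 genes and number 1 between -1.02 and 0.26.

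The effect of GW on cells that also received interferon-γ was read from siCon_IFNg_GW against siCon_IFNg. In numbers 2 and 3, Cxcl1, Cxcl2, Ccl3, Ccl4 and Ccl20 rose by 9.26-fold to 18.9-fold with GW, while Ccl7 and Cx3cl1 fell by a factor of 1.98 and 1.96. In number 1, where these inflammatory chemokines were already high with interferon-γ, their differences with GW lay between -1.02 and 0.26. Over all 12 arrays 0 of the 10 members passed by limma (0.886% of all genes), and 2 passed with the replicate block (6.55% of all genes). An unadjusted p under 0.05 was held by 2 members and by 2065 of all 18166 genes.

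Cxcl1 had levels of 11.71, 11.42 and 11.13 in siCon_IFNg_GW, against 11.45, 8.04 and 7.88 in siCon_IFNg. With GW the 3 numbers were close together. The difference of 2.30 ± 0.75 (SE, limma adjusted p = 0.23) passed with the block (adjusted p = 0.035), and on numbers 2 and 3 it was 3.32 ± 0.13 (9.98-fold, adjusted p = 4.83e-06). Cxcl2 was at 10.52, 9.61 and 9.48 with GW, lower than without it in number 1 and 13.6-fold higher on numbers 2 and 3 (3.77 ± 0.15, adjusted p = 4.83e-06).

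Ccl3 was at 11.58, 10.95 and 10.86 with GW. Its rise on numbers 2 and 3, 18.9-fold (4.24 ± 0.08 SE, limma adjusted p = 5.64e-07), was the largest of the list, while number 1 had -0.73. Ccl4 was at 10.33, 8.96 and 8.89, a rise of 11.7-fold on numbers 2 and 3 (3.55 ± 0.15, adjusted p = 6.94e-06). Ccl20 was at 10.75, 9.63 and 9.53, a rise of 9.26-fold on numbers 2 and 3 (3.21 ± 0.09, adjusted p = 2.64e-06). For each of these 3 genes number 1 stayed the highest of the GW arrays. Over all 12 arrays their differences were 2.59 ± 1.38, 2.08 ± 1.44 and 1.80 ± 1.19 (SE, adjusted p = 0.54, 0.68 and 0.66), and they did not pass with the block either (adjusted p = 0.086, 0.11 and 0.23).

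Cx3cl1 moved the other way, with levels of 10.18, 9.55 and 9.65 under GW against 11.79, 10.53 and 10.60. All GW arrays were below all interferon-γ arrays, as for 7.24% of all genes. The difference was -1.18 ± 0.30 (SE, limma adjusted p = 0.12; 0.0068 with the block), with -1.61, -0.99 and -0.95 in the pairs. Ccl7 was at 11.22, 10.04 and 9.65, lower in each pair (-0.30, -0.91 and -1.06), and it passed on numbers 2 and 3 (-0.98, adjusted p = 0.0054) but neither over all 12 arrays (adjusted p = 0.71) nor with the block (adjusted p = 0.36). Ccl2, at 11.83, 11.64 and 11.49, had -0.23 with a 95% interval of -0.70 to 0.24 (adjusted p = 0.80). Ccl5 was at 9.99, 6.86 and 6.95 and had 0.20 on numbers 2 and 3 (adjusted p = 0.22).

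On numbers 2 and 3, 7 members passed, 5 higher (6.47% of all genes) and 2 lower (4.98%). The change in number 1 differed from that in the others for 6 members by limma (3.02% of all genes). These were Ccl3 (-4.97 ± 0.14 SE, adjusted p = 1.22e-05), Cxcl2 (-4.73), Ccl4 (-4.39), Ccl20 (-4.23), Cxcl1 (-3.06) and Ccl5 (-0.79). Leaving out the single array siCon_IFNg replicate 1 raised the count of members called over the remaining arrays from 0 to 4, and that over all 18166 genes from 161 to 412. The members' median change was 1.02 (all genes, 0.00), made up of -0.66, 1.96 and 1.69 in pairs 1, 2 and 3. Microglia markers were lower with GW by a median of 0.46, with -0.52, -0.48 and -0.42 in the pairs. With the block 8 of 14 fell, where 6.55% of all genes were called. Over all 12 arrays 0 passed by limma and 7 had an unadjusted p under 0.05, as did 2065 of all 18166 genes. Ccl3 and Ccl4, which microglia are known to make, were higher with GW in numbers 2 and 3 (4.35 and 4.13, and 3.38 and 3.71) and lower in number 1 (-0.73 and -0.84), and the part of such cells in the chemokine values was not tested.

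**Figure D3:**
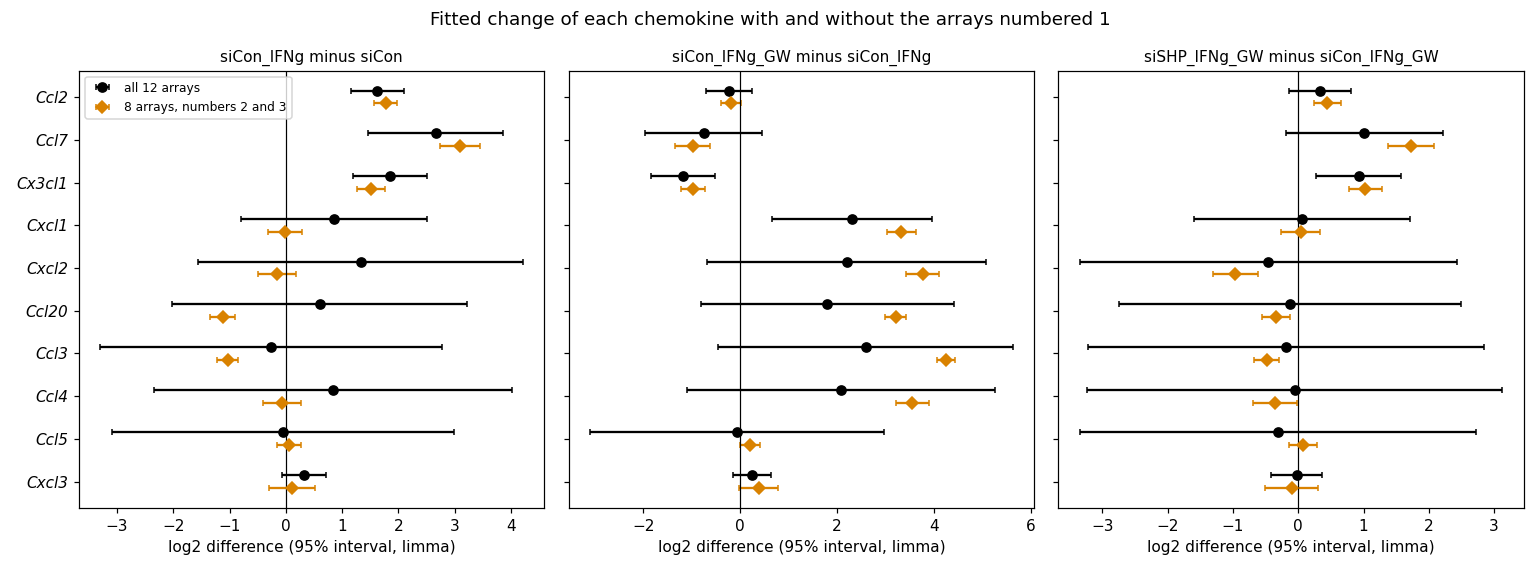
Fitted log2 difference of each chemokine (horizontal axis) with its 95% interval from limma, over all 12 arrays (circles) and over the 8 arrays numbered 2 and 3 (diamonds), for the same comparisons as labelled above each panel. For Ccl3 under GW the interval ran from -0.45 to 5.62 over all arrays and from 4.05 to 4.43 on numbers 2 and 3.

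Set against siCon, interferon-γ with GW gave levels that were higher in every pair for Cxcl1, Cxcl2, Ccl20, Ccl3, Ccl4, Ccl2, Ccl7 and Cx3cl1. This comparison shares its arrays with the preceding ones. The groups did not overlap for 7 members, all higher (8.1% of all genes), among them the background-level Cxcl3. Cxcl1 differed by 2.86, 3.56 and 3.04 in pairs 1, 2 and 3 (3.15 ± 0.75 SE, limma adjusted p = 0.097; 0.0097 with the block). Cxcl2 differed by 3.33, 3.44 and 3.79 (3.52 ± 1.31, adjusted p = 0.31; 0.029 with the block). For both neutrophil chemokines all 3 pairs thus lay between 2.86 and 3.79, where interferon-γ alone had left numbers 2 and 3 between -0.34 and 0.18.

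Ccl2 rose by 1.39 ± 0.21 (SE, limma adjusted p = 0.017) and was again the only member past the threshold over all 12 arrays (0.864% of all genes). That call was lost without siCon replicate 2 or 3 or without siCon_IFNg_GW replicate 1 or 2 (adjusted p = 0.070 to 0.091). Ccl4 (2.93, adjusted p = 0.49; 0.035 with the block) and Ccl7 (1.91, adjusted p = 0.16; 0.033 with the block) brought the members called with the block to 5 (6.84% of all genes). On numbers 2 and 3, 8 members were higher (3.31% of all genes), Ccl5 and Cxcl3 being the exceptions. Over all 12 arrays the microglia marker Tyrobp, an adaptor of myeloid receptors, fell by 0.92 in the same comparison (SE 0.17, limma adjusted p = 0.038). Of the 14 measured microglia markers 0 were higher, the median change was -0.57, and 12 fell with the block (6.84% of all genes called). Ccl3 rose least in number 1 (0.56, against 3.23 and 3.18), and for it alone of the 10 the difference between number 1 and the others was called (-2.65 ± 0.14 SE, adjusted p = 0.0016; 0.0495% of all genes).

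The comparison of siSHP_IFNg_GW with siCon_IFNg_GW asks what SHP siRNA changed under interferon-γ and GW. Over all 12 arrays 0 members passed by limma (0% of all genes), and 0 passed with the block. An unadjusted p under 0.05 was held by 416 of all 18166 genes and by 1 member. That was Cx3cl1, with levels of 10.90, 10.61 and 10.65 against 10.18, 9.55 and 9.65. The siSHP arrays were all above the siCon arrays for Cx3cl1 and for Ccl2 (11.94, 11.98 and 12.03 against 11.83, 11.64 and 11.49), as for 2.24% of all genes. Cx3cl1 differed by 0.93 ± 0.30 (SE, 95% interval 0.27 to 1.58, adjusted p = 1.00; 0.47 with the block) and by 0.72, 1.06 and 0.99 in the pairs.

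Ccl7 was at 10.79, 11.46 and 11.69 with SHP siRNA, lower than its control in number 1 (-0.42) and higher in numbers 2 and 3 (1.42 and 2.04). On those 8 arrays 4 members passed by limma, 2 higher (1.35% of all genes) and 2 lower (0.116%). Ccl7 was 3.31-fold higher there (1.73 ± 0.15 SE, adjusted p = 9.87e-04) and Cx3cl1 2.04-fold higher (1.03, adjusted p = 0.0024). Cxcl2, at 11.06, 8.63 and 8.53, was lower by a factor of 1.95 (-0.96, adjusted p = 0.018). Ccl3, at 11.98, 10.44 and 10.41, was lower by a factor of 1.40 (-0.48, adjusted p = 0.033). In number 1 both were higher instead, by 0.54 and 0.40.

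Cxcl1, at 11.81, 11.26 and 11.38, differed by 0.06 with SHP siRNA (95% interval -1.59 to 1.71; -0.26 to 0.34 on numbers 2 and 3). Ccl20 was at 11.07, 9.14 and 9.34 and Ccl4 at 10.89, 8.50 and 8.63, with differences on numbers 2 and 3 of -0.34 and -0.36 (limma adjusted p = 0.23 and 0.51). Ccl5 was at 8.91, 7.07 and 6.89, with differences of -1.08, 0.21 and -0.06 in the pairs. The change in number 1 differed from that in the others for 3 members by limma (0.721% of all genes): Ccl7 (-2.15 ± 0.26 SE, adjusted p = 0.016), Ccl5 (-1.16, adjusted p = 0.023) and Ccl3 (0.88, adjusted p = 0.044; 0.073 after quantile normalization). Cxcl2, with 0.54 in number 1 against -0.97 and -0.95, did not pass (adjusted p = 0.0501; 0.048 after centring and 0.041 after quantile normalization). The members' median change was -0.04 (all genes, -0.02).

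Genes that act around these chemokines were followed by lists. Of 13 measured of 14 NF-κB subunits and feedback genes, 0 passed over all 12 arrays by limma in any of the 4 comparisons (2 with interferon-γ, 2 with GW, 0 with SHP siRNA and 7 for interferon-γ with GW against siCon had an unadjusted p under 0.05, as did 999, 2065, 416 and 2052 of all 18166 genes). Their median changes were 0.64 with interferon-γ, 0.43 with GW, 0.12 with SHP siRNA and 1.08 for interferon-γ with GW against siCon. With GW the pairs had medians of -0.43, 0.88 and 0.84, and with interferon-γ 1.75, 0.14 and 0.17; whether number 1 differed from the others was not tested for this list. With the block 2 rose with GW (6.55% of all genes were called there): Nfkbia, the inhibitor that NF-κB induces against itself (1.44, limma adjusted p = 0.038; 2.04 on numbers 2 and 3), and Nfkbiz, a nuclear cofactor (1.66, adjusted p = 0.026). Against siCon 3 rose with the block under interferon-γ alone (0.936% of all genes called) and 8 under interferon-γ and GW (6.84%).

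Of 8 factors that govern decay of such transcripts, 0 passed over all 12 arrays by limma, with 0, 5, 1 and 5 at an unadjusted p under 0.05 in the same order. Zfp36, which destabilises AU-rich messenger RNAs, rose in every pair with interferon-γ (1.22, 2.01 and 1.78) and again with GW (1.11, 1.55 and 1.38), and it passed with the block (limma adjusted p = 0.011 and 0.010). Of 19 inducing cytokines and receptors 0 passed over all 12 arrays by limma, with 2, 3, 0 and 5 at an unadjusted p under 0.05. With the block 2 rose with interferon-γ (0.936% of all genes called), Csf1 (1.00, limma adjusted p = 0.020) and Il1a (2.53, adjusted p = 0.048). The list's summed level in siCon_IFNg was 14.04 in number 1 against 12.36 and 12.35 in numbers 2 and 3. With GW 2 rose and 2 fell with the block (6.55% of all genes called). Of those, Lif, a cytokine of the gp130 family, had 1.96 (adjusted p = 0.024). Against siCon, interferon-γ with GW gave 3.30 for Il6 and 2.36 for Tnf (limma adjusted p = 0.024 and 0.012 with the block). In that comparison 6 of the 19 rose and 1 fell with the block (6.84% of all genes called). Of 25 other chemokines Cxcl9, a T cell attractant that interferon-γ induces, was the only one that passed over all 12 arrays: it fell by 5.47 with GW (SE 0.87, adjusted p = 0.019), and the pairs had -2.86, -7.00 and -6.54. With the block 3 of the 25 rose with interferon-γ (0.936% of all genes called) and 5 fell with GW (6.55%). Most receptors of these 10 chemokines were below background: 5 to 7 of the 8 measured of 10 lay below it on each array. The rest lay above it, and the summed levels of the list were 8.16 to 9.37. In any comparison 0 receptors passed by limma, with or without the block (1 had an unadjusted p under 0.05, with interferon-γ).

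**Figure D4:**
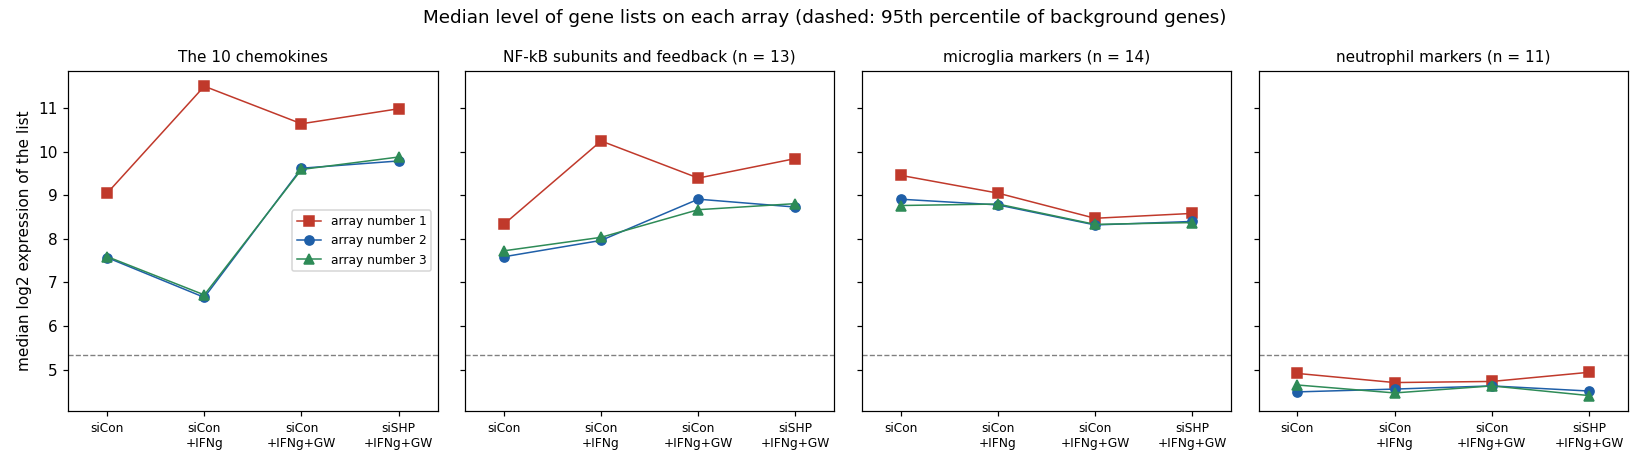
Median log2 expression (vertical axis) of the 10 chemokines, 13 NF-κB subunits and feedback genes, 14 microglia markers and 11 neutrophil markers on each array, by group and array number; the dashed line is the 95th percentile of background genes. The chemokine median in siCon_IFNg was 11.50 in number 1 against 6.66 and 6.71 in numbers 2 and 3, the NF-κB list had 10.24 against 7.96 and 8.03, and the neutrophil markers stayed below the dashed line.

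Among 12433 genes above background, those with levels most like the members' were listed by Pearson's r over the 12 arrays, a description in which arrays share groups and numbers. For Cxcl1 they were Ptgs2, the inducible cyclooxygenase (r = 0.98; 0.995 on the 8 arrays numbered 2 and 3), Baz1a, Aff4, Nfkbia and Nuak2 (each 0.98). For Ccl2 they were Irf1 (0.97), Stat3 (0.96), Ccl7 (0.96), Golph3 (0.96) and Rab20 (0.92), and Irf1 kept 0.98 on numbers 2 and 3. For Cx3cl1 they were Cflar (0.96), the costimulatory receptor Cd40 (0.95), Pakap (0.93), Ncoa7 (0.93) and Nos2 (0.93). Ccl5 was most like Cxcl16 (0.99), Mboat7, Dapk3, Egln2 and Med25 (each 0.99), a likeness set by number 1 for most: on numbers 2 and 3 Cxcl16 had 0.25 and Egln2 0.21, while Mboat7 had 0.91.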

How the data were processed

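Total RNA was measured on 12 whole-transcript arrays; the labels' protocols name Trizol for extraction and a kit that labels fragmented sense cDNA with biotin. The deposited table holds log2 values as the authors summarised them, 1 per row and array (36685 rows, 1.01 to 13.43). For the correction, summary and normalization of the scans, methods were not given in the sources used here. A base of 2 was taken because of the range of the values. Of the 12 arrays, 4 come from an earlier series per the series text, and which of the 3 numbers they carry is not said. In the platform annotation 18511 rows had 1 gene, 575 several and 17599 none; 18394 were matched to RefSeq by Entrez ID. For 291 genes with several rows the row with the highest mean was used, leaving 18166 genes. Depth has no counterpart here: the number of arrays limits the precision. Columns of other samples numbered 0.

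Groups and numbers came from the sample titles. With limma 3.58.1 (R 4.3.3), 1 model of 4 group means over all 12 arrays gave every comparison, with Benjamini-Hochberg adjustment over all genes and a threshold of 0.05; "called" and "passed" mean an adjusted p below it. Samples of the same number deviated together (correlations of deviations from the group mean of 0.63 to 0.77 for number 1, 0.48 to 0.58 for 2 and 0.43 to 0.55 for 3). The group mean includes number 1, so its offset alone can make numbers 2 and 3 deviate together. Arrays of the same number were read as pairs, and for numbers 2 and 3 this pairing is an assumption that the correlations cannot check. Alternatives were the replicate block, fits without number 1 or each array, number 1 as a batch block, centring, quantile normalization, a filter on dim genes, all rows averaged, fits on 2 groups and another variance prior. The fits were tested on simulated data. The members, the lists and the split of number 1 from numbers 2 and 3 were chosen with earlier results of these data known. Members were all named. Of the other lists, the rule named genes called over all 12 arrays; list genes named from the block fits, and the motifs, were chosen after their values were seen. A further motif that was searched is not reported here. Python 3.11.15 with matplotlib 3.10.9 drew the plots.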

Additional observations from a re-analysis of the deposited data

How the results depend on the processing

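The count of members past the threshold depended on the fit. For interferon-γ (1 of 10) it was 3 with the replicate block and with number 1 as a batch block, 2 with the filter on dim genes and with the trended, robust variance, 0 with median centring and in the fit on 2 groups, and 0 to 5 on leaving out arrays. For GW (0 of 10) it was 2 with the replicate block and with the batch block and 0 to 7 on leaving out arrays. For SHP siRNA (0 of 10) it was 0 to 4 on leaving out arrays. For interferon-γ with GW against siCon (1 of 10) it was 5 with the replicate block, 7 with the batch block and 0 to 8 on leaving out arrays. The cause was not tested. Leaving out arrays includes the fit without number 1, which gave the highest of each of these counts.

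Over all genes the 22 calls for interferon-γ became 170 with the replicate block, 232 with the batch block, 7 in the fit on 2 groups and 2 to 856 on leaving out arrays. The 161 calls for GW became 1189, 1558, 4 and 27 to 2081, and 79 with median centring. The 0 calls for SHP siRNA, where 416 genes had an unadjusted p under 0.05, became 1 with the batch block and 0 to 267 on leaving out arrays. The 157 calls for interferon-γ with GW against siCon became 1242, 1604, 32 and 23 to 1028, and 79 with median centring.

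Differences of single members changed sign only on leaving out arrays. With interferon-γ the ranges were -0.31 to 1.48 for Cxcl1, -0.57 to 2.30 for Cxcl2, -2.14 to 0.85 for Ccl3, -1.09 to 1.91 for Ccl4, -1.34 to 1.35 for Ccl5 and -1.20 to 1.52 for Ccl20. With GW Ccl5 ran from -1.09 to 1.23, and against siCon from -1.14 to 1.28. With SHP siRNA Cxcl1 ran from -0.11 to 0.20, Cxcl3 from -0.12 to 0.15, Ccl3 from -0.71 to 0.078, Ccl4 from -0.82 to 0.42, Ccl5 from -0.95 to 0.72 and Ccl20 from -0.73 to 0.27. Counts of members for which number 1 differed kept within 1.5 times under centring and quantile normalization. Array medians ran from 5.51 to 5.67, and members below background have no usable level.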

Other observations

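Of 10 measured of 12 adhesion molecules of leukocyte entry, 0 passed over all 12 arrays by limma in any comparison. With interferon-γ, with GW, with SHP siRNA and for interferon-γ with GW against siCon, 2, 1, 0 and 2 had an unadjusted p under 0.05. In the same order 999, 2065, 416 and 2052 of all 18166 genes did. With the replicate block 2 rose with interferon-γ (0.936% of all genes called) and 2 fell with GW (6.55%). For interferon-γ with GW against siCon 2 rose and 1 fell with the block (6.84%). The 2 that fell with GW were the leukocyte integrins Itga4 (-0.83) and Itgam (-0.64), and Itgam also fell against siCon (-0.54). Itgam is on the microglia marker list too, so its falls were already counted there. With interferon-γ against siCon, Icam1, the endothelial and glial ligand of leukocyte integrins, differed by 2.13, 0.87 and 0.76 in pairs 1, 2 and 3 (1.26 ± 0.47 SE, limma adjusted p = 0.71; 0.040 with the block). Vcam1 differed in that comparison by 1.38, 1.40 and 1.14 (1.30 ± 0.45, limma adjusted p = 0.65; 0.0072 with the block). For Icam1, as for the neutrophil chemokines, the pair numbered 1 had the largest difference, and that of Vcam1 in this pair lay between the other two.

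The sheddase list held 2 measured genes of 3. Ctss, the protease cathepsin S that cleaves Cx3cl1 from membranes and is typical of microglia, differed with GW by -0.87, -0.75 and -0.38 in the pairs (-0.66 ± 0.22 SE, limma adjusted p = 0.24; 0.017 with the block). These genes were chosen for mention after their values were seen.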
